A study of Mus musculus with 12 samples.

Results

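Messenger RNA of 9 genes that make and break down prostaglandins was followed in mouse kidney epithelial cells that were attached or held in suspension, with and without the stress kinases JNK1 and JNK2. The genes are Pla2g4a, Ptgs1, Ptgs2, Ptges, Ptges2, Ptges3, Ptgr1, Ptgr2 and Hpgd. They are 9 of the 31026 entries of each deposited table and were selected by symbol, with their group values in all 4 comparisons already in view, so their levels, fold changes and counts below are a description and support no test. The study asked what JNK does in anoikis, the cell death that follows when an epithelial cell is detached from its support.

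The 12 samples were cultured kidney epithelial cells of the C57BL/6 strain, and each of the 4 groups had 3. The controls carried Rosa-CreER, a Cre recombinase fused to an estrogen receptor domain and driven from the broadly active Rosa26 locus. JNK-deficient cells also carried Rosa-CreER, on a Jnk1flox/flox Jnk2-/- background, and are labelled Jnk1-/- Jnk2-/-, so the Cre was common to all groups. Cells of each genotype were kept as an attached monolayer or suspended for 4 hours. Neither the inducing agent and its timing nor the independence of the samples as cultures or animals is given in the sources used here, so the spread behind the p-values may be technical.

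The deposited tables give 1 pooled value per group in FPKM, which counts fragments scaled for transcript length and library size. No value per sample is held, so no SD can be shown and the depth per sample is unknown. The authors' test gives a q-value, a p-value adjusted for the number of entries tested, and a gene is said here to have risen, fallen or differed only at a q-value below 0.05. Fold changes are on the log2 scale, where 1 is a doubling, with suspended divided by attached cells, or JNK-deficient by control cells. In such bulk samples fewer cells of a type and less RNA per cell cannot be told apart. Mapk8, which encodes JNK1, was at 8.76 FPKM in attached control and 2.26 in attached JNK-deficient cells (a log2 fold change of -1.95 with q = 0.000347 according to the authors' deposited table), and Mapk9, which encodes JNK2, at 12.8 and 8.89 (-0.52). Suspended cells gave -2.11 for Mapk8 and -0.74 for Mapk9 according to the authors' deposited table, and which exons these reads came from cannot be seen. All 10 epithelial markers, Cdh1, Epcam, keratins and Pax8 among them, were detected in every group, at 10.7 FPKM or more, and their summed level was 6044 and 3015 FPKM in attached and suspended control cells and 5599 and 3016 FPKM in JNK-deficient cells.

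Prostaglandins are short-lived lipid messengers made from arachidonic acid. A phospholipase frees arachidonic acid from membranes, the cyclooxygenases turn it into prostaglandin H2, and terminal synthases convert that into prostaglandin E2 and its relatives, which act through receptors on the cell surface. Breakdown begins with oxidation by 15-hydroxyprostaglandin dehydrogenase, and the prostaglandin reductases then reduce the 15-keto product. In the kidney, prostaglandin E2 is known for its effects on blood flow and on salt and water handling.

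The RefSeq promoter windows of 3 members are shown because Ptgs2 and Ptgr1 had the widest ranges of level among the members and Ptges3 has matches to more of the searched motifs than any other member. Each runs 5′ to 3′ on the gene's strand on GRCm38.p6, from 250 bases before the RefSeq start to 30 bases from it, with motif matches in capitals. Ptgs2 is chr1:150099781-150100060 (plus strand), Ptges3 is chr10:128058732-128059011 (plus strand) and Ptgr1 is chr4:58987049-58987328 (minus strand).
Ptgs2: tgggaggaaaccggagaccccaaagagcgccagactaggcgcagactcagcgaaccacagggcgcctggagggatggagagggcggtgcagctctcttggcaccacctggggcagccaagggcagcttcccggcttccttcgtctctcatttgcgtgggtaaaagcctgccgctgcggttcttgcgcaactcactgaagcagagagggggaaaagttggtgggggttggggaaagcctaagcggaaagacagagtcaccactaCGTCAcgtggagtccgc
Ptges3: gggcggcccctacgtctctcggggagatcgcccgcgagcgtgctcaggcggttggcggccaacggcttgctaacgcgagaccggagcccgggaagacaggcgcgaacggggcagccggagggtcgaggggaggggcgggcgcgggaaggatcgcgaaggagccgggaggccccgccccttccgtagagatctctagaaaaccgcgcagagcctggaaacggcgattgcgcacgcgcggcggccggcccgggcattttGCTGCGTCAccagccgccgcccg
Ptgr1: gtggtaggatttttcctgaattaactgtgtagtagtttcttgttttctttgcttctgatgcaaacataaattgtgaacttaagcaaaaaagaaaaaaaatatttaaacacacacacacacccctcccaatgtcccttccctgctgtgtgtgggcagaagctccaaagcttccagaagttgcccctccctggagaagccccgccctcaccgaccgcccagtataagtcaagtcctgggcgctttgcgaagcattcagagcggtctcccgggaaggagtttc

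Motifs of 5 kinds were searched on both strands of windows of 250 bases before to 50 bases after the start, in 10 windows of the 9 members and in all 32851 windows of the table. The AP-1 site TGANTCA, the kind of site bound by the JNK target JUN, was in 7.81% of all windows and in 0 of the 10 member windows. The full cyclic AMP response element TGACGTCA was in 1.79% of all windows and likewise in 0 of the 10. Its core CGTCA was in 20.8% of all windows and in 2 member windows, those of Ptgs2 and Ptges3, and these are the capitals above. The antioxidant response core TGACNNNGC was in 12.4% of all windows and in 1 member window, that of Ptges3, where it reads GCTGCGTCA on the shown strand and overlaps the CGTCA. The TATA box TATAAA was in 13.6% of all windows and in 2 member windows, of Hpgd and of the other Pla2g4a start. These are matches of letters only, beginning at base 5 from the Hpgd start and, as TTTATA, 200 bases before the Pla2g4a start. The Ptgr1 window holds none of these 5 motifs, so it has no capitals. The RefSeq start of Ptgs2 lies 93 bases before the start of its entry in the deposited tables, and the starts agree for Ptges3 and Ptgr1.

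**Figure D1:**
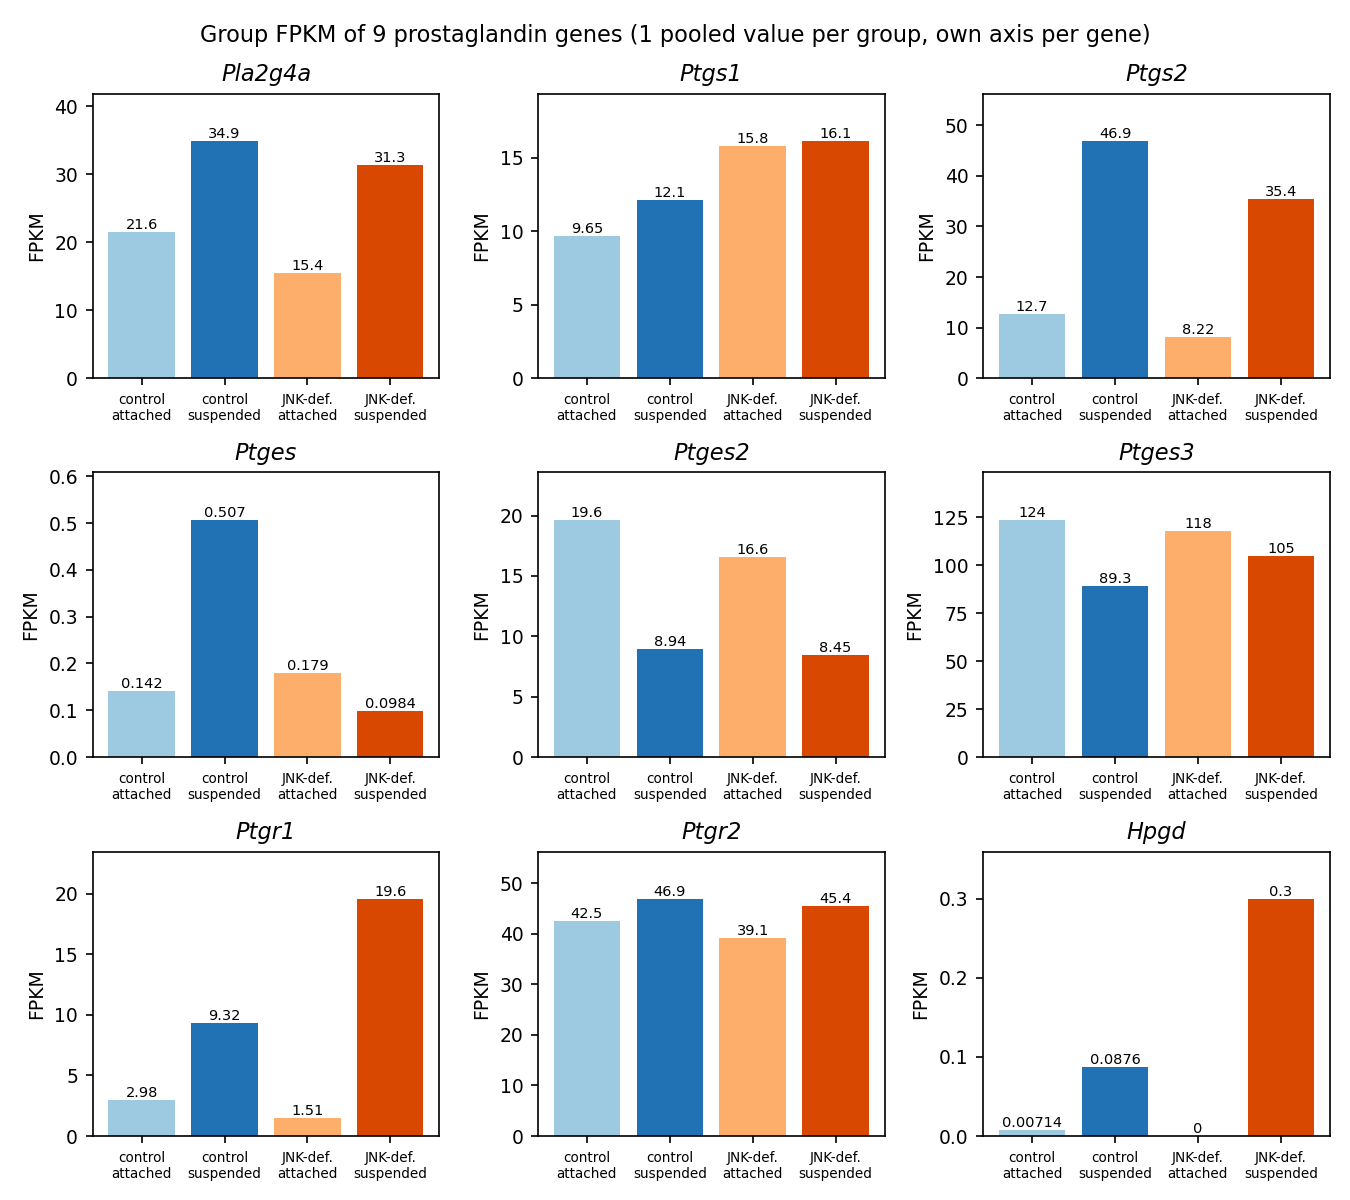
Level in FPKM (y axis, from 0, a separate scale for each gene) of the 9 members in the 4 groups (x axis), 1 pooled value per group and so no error bars. Ptgr1 runs from 1.51 to 19.6 FPKM and Ptgs2 from 8.22 to 46.9, while Ptgr2 stays between 39.1 and 46.9.

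With suspension of control cells, 5 of the 8 tested members rose (Pla2g4a, Ptgs1, Ptgs2, Ptges and Ptgr1), 2 fell (Ptges2 and Ptges3) and Ptgr2 did not pass according to the authors' deposited table. Of all 13386 entries tested there, 33% were higher and 32.1% lower in suspended cells. With suspension of JNK-deficient cells, 3 of the 7 tested members rose (Pla2g4a, Ptgs2 and Ptgr1) and Ptges2 fell according to the authors' deposited table, where 30.6% of 13136 tested entries were higher and 29% lower. Between the genotypes in attached cells, Ptgs1 was higher and Pla2g4a, Ptgs2 and Ptgr1 were lower without JNK, of 7 tested members according to the authors' deposited table, where 14.7% of 12960 tested entries were higher and 14.1% lower. In suspended cells 1 of 7 tested members differed, Ptgr1, which was higher in JNK-deficient cells according to the authors' deposited table, where 5.57% of 12795 tested entries were higher and 6.93% lower. The median log2 fold change of the tested members was 0.51, 0.22, -0.16 and 0.01 in these 4 comparisons, against 0.02, 0.04, -0.00 and 0.01 over all tested entries.

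Markers of other cell types moved with suspension as well. Of 9 leukocyte markers 5 were tested in control cells, where 3 rose (Ptprc from 1.14 to 8.92, Csf1r from 0.572 to 3.87 and Cd68 from 15.1 to 34.5 FPKM) and Cd14 fell, and 4 in JNK-deficient cells, where 3 rose and 1 fell, according to the authors' deposited tables. Of the 10 epithelial markers, 1 rose and 9 fell in control cells, and 1 rose and 8 fell in JNK-deficient cells, by those tables. Among all tested entries 33% rose and 32.1% fell in control cells, and 30.6% rose and 29% fell in JNK-deficient cells. In JNK-deficient cells Ptprc was at 1.05 and 10.7 FPKM and Csf1r at 1.47 and 7.97 in attached and suspended cells. The summed leukocyte level was 55.8 and 71.0 FPKM in attached and suspended control cells and 77.9 and 78.3 in JNK-deficient cells, of which Cd14 alone made up 38.9 and 22.5, and 61.3 and 28.4. Csf1r was also higher in JNK-deficient cells, attached (1.44, q = 0.000347) and suspended (1.09, q = 0.00099), according to the authors' deposited tables. Itgam was at most 0.0503 FPKM in the 4 groups of the suspension tables, and Emr1 and Cd3e were listed at 0 in suspended JNK-deficient cells. The summed level of 7 fibroblast markers was 0.339 and 3.42 FPKM in control and 0.466 and 1.63 in JNK-deficient cells, and that of 5 endothelial markers 0.418 and 2.04, and 0.256 and 1.4. The part of such cells in the members' values was not tested.

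**Figure D2:**
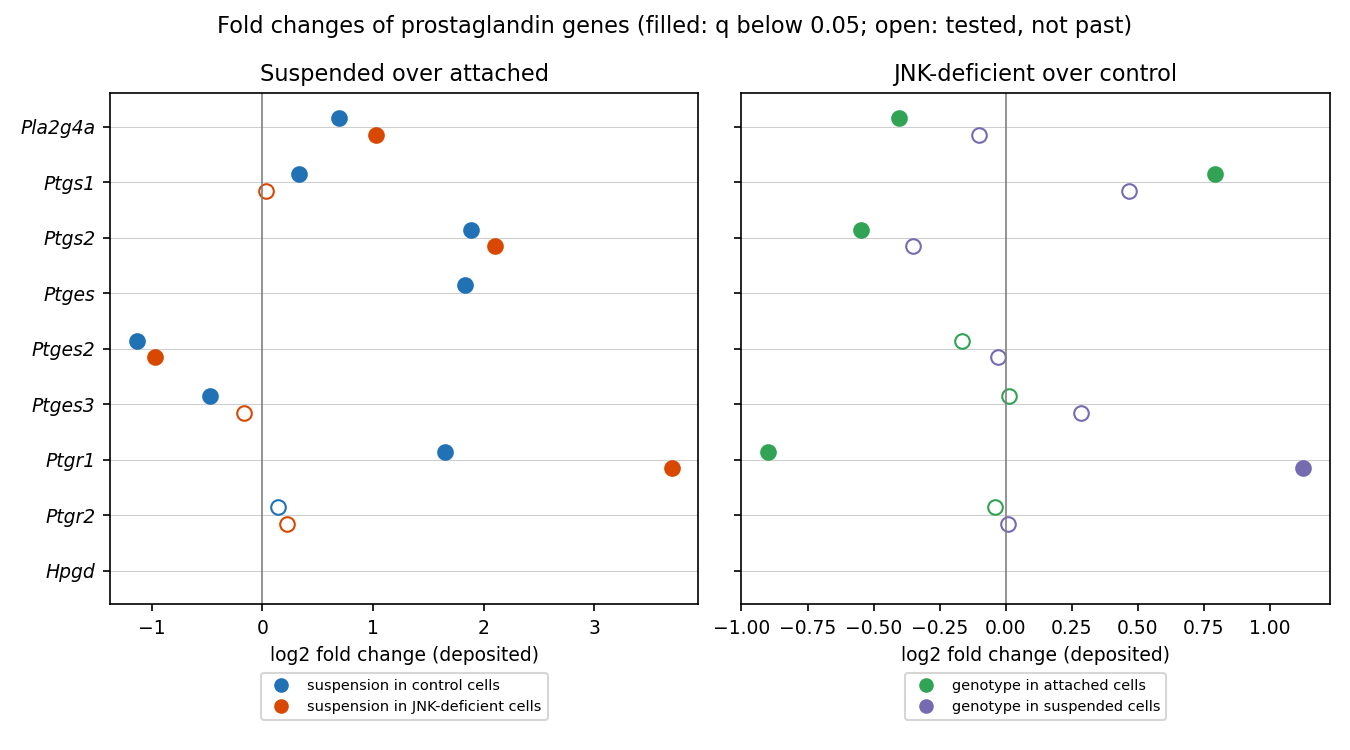
Deposited log2 fold changes (x axis) of the members (y axis) for suspended over attached cells (left) and for JNK-deficient over control cells (right). Filled points passed a q-value of 0.05, open points were tested and did not pass, and a missing point was not tested. Ptgr1 is the member with filled points on both sides of 0 in the genotype panel, at -0.90 and 1.13.

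Pla2g4a (chr1:149829622-149961284 on mm10) encodes cytosolic phospholipase A2, which releases arachidonic acid from membrane phospholipids. Its level was 21.6 FPKM in attached control, 34.9 in suspended control, 15.4 in attached JNK-deficient and 31.3 in suspended JNK-deficient cells. Suspended cells were above attached cells in both genotypes. Pla2g4a rose by 0.69 in control (q = 0.000123) and by 1.02 in JNK-deficient cells (q = 0.000144) according to the authors' deposited tables. It was lower in attached JNK-deficient than in attached control cells (-0.40, q = 0.000347), and the difference in suspended cells did not pass (-0.10, q = 0.76), according to the authors' deposited tables.

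Ptgs1 (chr2:36230426-36252269) encodes cyclooxygenase 1, the form most tissues make at a steady level. It was at 9.65 FPKM in attached control, 12.1 in suspended control, 15.8 in attached JNK-deficient and 16.1 in suspended JNK-deficient cells, so both JNK-deficient groups were above both control groups. Ptgs1 rose with suspension in control cells (0.33, q = 0.0112) and did not pass in JNK-deficient cells (0.03, q = 0.861) according to the authors' deposited tables. It was 1.73-fold higher in attached JNK-deficient than in attached control cells (0.79, q = 0.000347) according to the authors' deposited table, and 4.19% of tested entries had a larger rise in that comparison. In suspended cells it lay just outside the threshold (0.47, q = 0.0514) according to the authors' deposited table. A gene of unknown coding status, Gm43621, overlaps the Ptgs1 locus on the opposite strand, and no source used here says whether the counting used strand.

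Ptgs2 (chr1:150100124-150108012) encodes cyclooxygenase 2, the inducible form, and lies 138839 bases from Pla2g4a on the same chromosome. Its level was 12.7 FPKM in attached control, 46.9 in suspended control, 8.22 in attached JNK-deficient and 35.4 in suspended JNK-deficient cells. Both suspended groups were above both attached groups, and within each state the JNK-deficient value was the lower. With suspension Ptgs2 rose 3.69-fold in control (1.88, q = 0.000123) and 4.30-fold in JNK-deficient cells (2.11, q = 0.000144) according to the authors' deposited tables. Of all tested entries, 7.54% had a larger rise in control and 4.92% in JNK-deficient cells. Between the genotypes it was 1.46-fold lower in attached JNK-deficient cells (-0.55, q = 0.000347), and the difference in suspended cells did not pass (-0.35, q = 0.0536), according to the authors' deposited tables. Ptgs2 stood above 65.6% of the entries listed above 0 in attached control cells and above 88.9% of them in suspended control cells, with 59.3% and 84.1% in JNK-deficient cells.

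Since FPKM is scaled for length, the levels of both cyclooxygenases could be set against each other within a group. The level of Ptgs2 was 1.32 times that of Ptgs1 in attached control cells and 3.87 times in suspended control cells. In JNK-deficient cells it was 0.520 times when attached and 2.19 times when suspended. Ptgs2 thus made up 56.9%, 79.5%, 34.2% and 68.7% of the summed cyclooxygenase level in attached control, suspended control, attached JNK-deficient and suspended JNK-deficient cells. Attached JNK-deficient cells were the single group with more Ptgs1 than Ptgs2 by level. No spread between samples is held for these ratios.

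**Figure D3:**
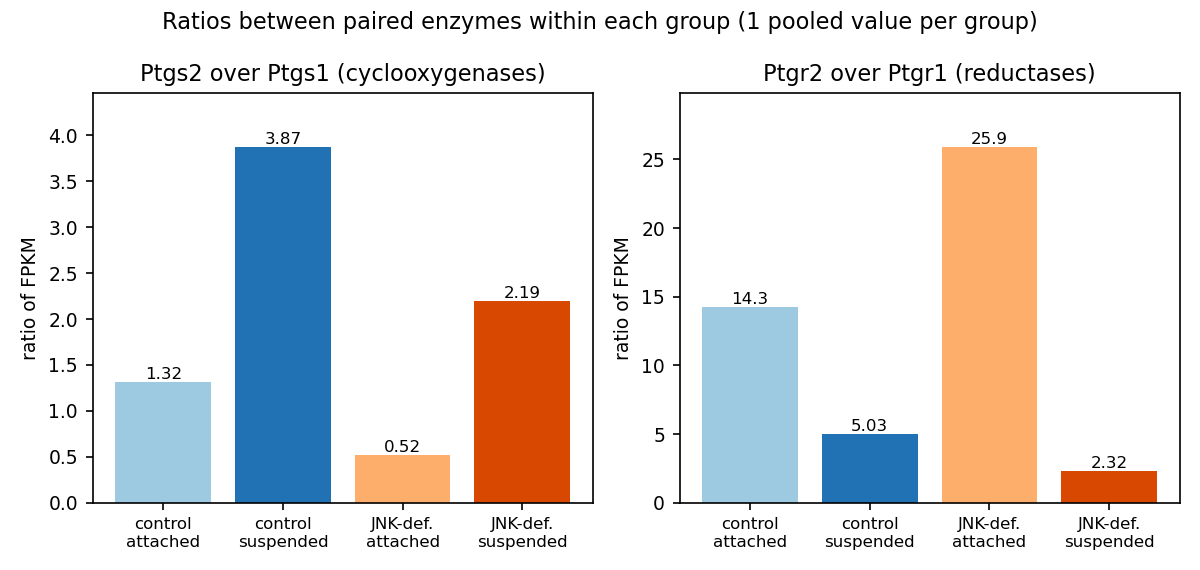
Ratio of FPKM levels (y axis, from 0) of Ptgs2 over Ptgs1 (left) and Ptgr2 over Ptgr1 (right) in the 4 groups (x axis), 1 pooled value per group. The cyclooxygenase ratio is 3.87 and 2.19 in suspended cells and 1.32 and 0.520 in attached cells. The reductase ratio is 5.03 and 2.32 in suspended cells and 14.3 and 25.9 in attached cells.

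The 3 prostaglandin E synthases differed from each other in level and in direction. Ptges (chr2:30889471-30903297) encodes microsomal prostaglandin E synthase 1, the inducible membrane enzyme often coupled to cyclooxygenase 2. It was the least abundant of them, at 0.142 FPKM in attached control, 0.507 in suspended control, 0.179 in attached JNK-deficient and 0.0984 in suspended JNK-deficient cells, above 12.7% to 29.5% of the entries listed above 0. In control cells Ptges rose 3.57-fold with suspension (1.84, q = 0.00351) according to the authors' deposited table. That rise was 0.40 on the log2(FPKM + 1) scale, and 2.44 after a correction of the authors' deposited values for GC content and length (q = 0.000176). It was not tested in the other 3 comparisons, whose log2 ratios were -0.86 for suspension of JNK-deficient cells, 0.42 for genotype in attached and -2.31 for genotype in suspended cells according to the authors' deposited tables.

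Ptges2 (chr2:32395890-32402740) encodes microsomal prostaglandin E synthase 2, a constitutively made enzyme. It was at 19.6 FPKM in attached control, 8.94 in suspended control, 16.6 in attached JNK-deficient and 8.45 in suspended JNK-deficient cells, and attached cells were above suspended cells in both genotypes. Ptges2 fell with suspension in control (-1.13, q = 0.000123) and in JNK-deficient cells (-0.97, q = 0.000144) according to the authors' deposited tables, whereas the genotype differences did not pass in attached (-0.16, q = 0.194) or suspended cells (-0.03, q = 0.964). The GC content of Ptges2 and Ptges, as a median over the annotated transcripts of each gene, was 56.6% each, the highest of the members. Across tested genes, the suspension fold change had a Spearman correlation with GC content of -0.33 in control cells and -0.39 in JNK-deficient ones. With a correction of the authors' deposited values for GC content and length, followed by Benjamini-Hochberg adjustment, neither fall of Ptges2 passed (-0.53, q = 0.0922, and -0.29, q = 0.319). Both p-values of the authors' test were 5e-05, the smallest deposited, so the standard errors used are upper limits. The corrected q-values of Ptges2 may therefore be too large.

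Ptges3 (chr10:128058982-128077254) encodes cytosolic prostaglandin E synthase, the protein also known as p23, a co-chaperone of HSP90. It was the most abundant member, at 123.5 FPKM in attached control, 89.3 in suspended control, 117.7 in attached JNK-deficient and 104.9 in suspended JNK-deficient cells. These levels were above those of 94.7% to 96.0% of the entries listed above 0, and Ptges3 made up 86.2% to 92.5% of the summed level of the 3 synthases. Ptges3 fell with suspension in control cells (-0.47, q = 0.000123) and did not pass in JNK-deficient cells (-0.17, q = 0.191) according to the authors' deposited tables. With the same correction of the authors' deposited values it was lower in suspended cells of both genotypes (-0.71, q = 2.53e-08, and -0.44, q = 0.000532). That correction takes the trend it subtracts as free of error, so these corrected q-values may be too small. The genotype differences of Ptges3 did not pass (0.01, q = 0.942, attached, and 0.29, q = 0.139, suspended) according to the authors' deposited tables. A processed pseudogene of Ptges3 lies on another chromosome, and any reads shared with it could not be separated here.

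**Figure D4:**
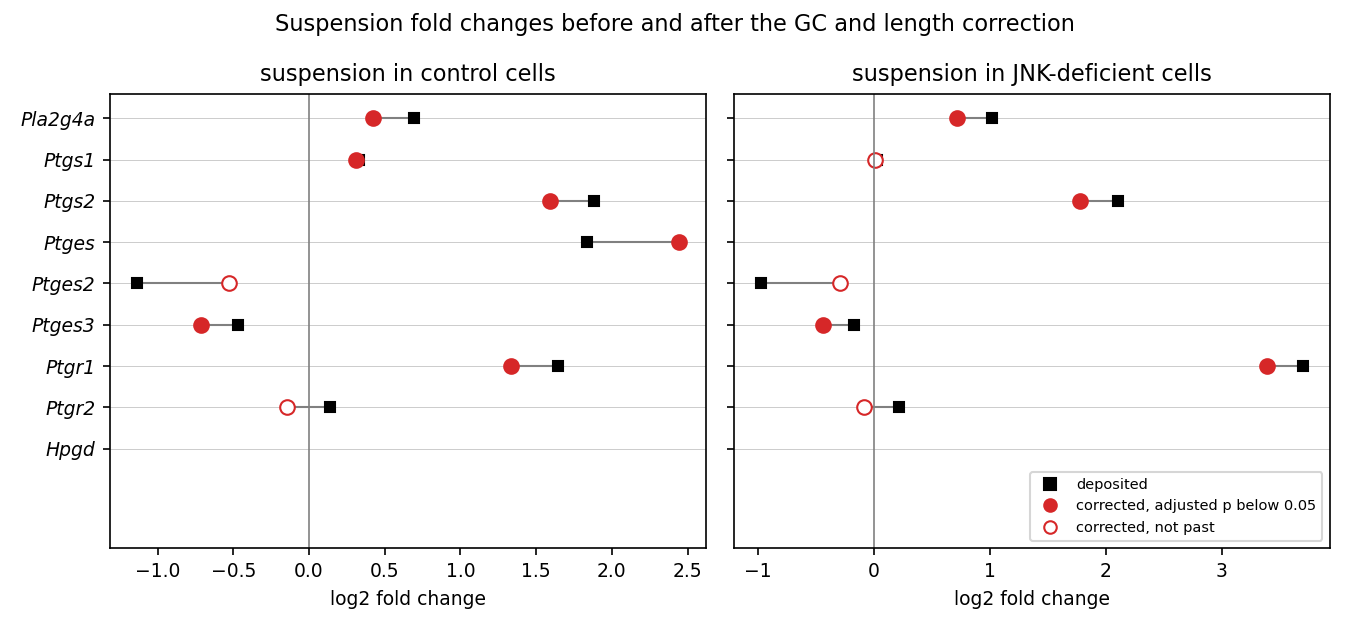
Log2 fold change with suspension (x axis) of each member (y axis) in control (left) and JNK-deficient cells (right), as deposited (black squares) and after the GC and length correction (red circles, filled where the adjusted p was below 0.05). Ptges2 moves from -1.13 to -0.53 and from -0.97 to -0.29 and no longer passes, while Ptgs2 and Ptgr1 stay above 1.3 in both panels. Hpgd was not tested.

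Ptgr1 (chr4:58965590-58987078) encodes prostaglandin reductase 1, which reduces 15-keto prostaglandins and also inactivates leukotriene B4. Its level was 2.98 FPKM in attached control, 9.32 in suspended control, 1.51 in attached JNK-deficient and 19.6 in suspended JNK-deficient cells. JNK-deficient cells thus held both the lowest and the highest value, and the control cells lay between them. With suspension Ptgr1 rose 3.13-fold in control (1.65, q = 0.000123) and 13.0-fold in JNK-deficient cells (3.70, q = 0.000144) according to the authors' deposited tables. Entries with a larger rise made up 9.22% of those tested in control and 1.30% in JNK-deficient cells.

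The genotype difference of Ptgr1 had opposite signs in the 2 states. In attached cells Ptgr1 was 1.86-fold lower in JNK-deficient than in control cells (2.8 and 1.5 FPKM for control and JNK-deficient cells, -0.90, q = 0.000347) according to the authors' deposited table. In suspended cells it was 2.18-fold higher (9.47 and 20.7 FPKM, 1.13, q = 0.00099) according to the authors' deposited table. Of tested entries, 2.94% were further below in attached and 1.99% further above in suspended cells. FPKM values of one group are scaled slightly differently in the 2 tables that hold it, by up to 1.06-fold, which is why these values are not identical to those above.

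The suspension effect of Ptgr1 was 2.05 larger on the log2 scale in JNK-deficient than in control cells. For the other members the same difference was 0.33 for Pla2g4a, 0.30 for Ptges3, 0.22 for Ptgs2, 0.16 for Ptges2, 0.08 for Ptgr2 and -0.30 for Ptgs1. Ptges had -2.70, from values of at most 0.507 FPKM. None of these differences was tested.

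Ptgr2 (chr12:84285296-84315832) encodes prostaglandin reductase 2, which likewise reduces 15-keto prostaglandins. It was at 42.5 FPKM in attached control, 46.9 in suspended control, 39.1 in attached JNK-deficient and 45.4 in suspended JNK-deficient cells, a range of 1.2-fold. It passed in none of the 4 comparisons, with log2 fold changes of 0.14 (q = 0.307), 0.22 (q = 0.148), -0.04 (q = 0.827) and 0.01 (q = 0.986) according to the authors' deposited tables. Ptgr2 was above Ptgr1 in every group, by 14.3 times in attached control, 5.03 times in suspended control, 25.9 times in attached JNK-deficient and 2.32 times in suspended JNK-deficient cells. Its entry joins 6 transcripts, and a noncoding gene, Gm47484, overlaps the locus on the opposite strand.

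Hpgd (chr8:56294552-56321046) encodes 15-hydroxyprostaglandin dehydrogenase, which starts the breakdown of prostaglandin E2. It was at 0.00714 FPKM in attached control, 0.0876 in suspended control and 0.30 in suspended JNK-deficient cells, and was listed at 0 in attached JNK-deficient cells. Hpgd was taken as not tested by the authors in every comparison, and no fold is given. The summed level of the 9 members was 233 FPKM in attached control, 249 in suspended control, 214 in attached JNK-deficient and 262 in suspended JNK-deficient cells. Those sums come from the suspension comparisons, which are scaled separately for each genotype. In the genotype comparisons the sums for control and JNK-deficient cells were 219 and 213 FPKM when attached, and 253 and 276 when suspended. Over the 4 groups the highest level was 13.0 times the lowest for Ptgr1, 5.71 times for Ptgs2, 5.15 times for Ptges, 2.32 times for Ptges2, 2.27 times for Pla2g4a, 1.67 times for Ptgs1, 1.38 times for Ptges3 and 1.2 times for Ptgr2.

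Genes whose 4 log2 fold changes lay closest to those of a member were found by Euclidean distance among 10720 entries tested in all 4 tables, for the 3 members with the widest range of log2(FPKM + 1) over the groups. Because the 4 tables share their groups, only 3 of the 4 values are free. Itgb8 (distance 0.744), Snai2 (0.802) and Bcl2l14 (1.0) were closest to Ptgr1. Closest to Ptgs2 were Dock4 (0.195), Syne1 (0.20) and Map3k6 (0.253), and closest to Pla2g4a were Agk (0.0187), Eogt (0.107) and Trpc1 (0.119). The distances of Ptgr1 to its neighbours were thus larger than those of Ptgs2 and Pla2g4a to theirs. Few entries lie as far out, and 1.30% of those tested had a larger rise with suspension of JNK-deficient cells. The distances therefore do not tell how distinct the pattern of Ptgr1 is.

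Of 65 other genes of eicosanoid metabolism and signalling with an entry, 34 were tested for suspension in control cells, where 18 rose and 6 fell, and 33 in JNK-deficient cells, where 13 rose and 8 fell, according to the authors' deposited tables. The shares of all tested entries that were higher and lower were 33% and 32.1% in control and 30.6% and 29% in JNK-deficient cells. Between the genotypes 14 of 29 tested were higher and 4 lower in attached JNK-deficient cells, and 7 of 32 were higher and 2 lower in suspended ones, where all tested entries had shares of 14.7% and 14.1% when attached and 5.57% and 6.93% when suspended. The median log2 fold change of those tested was 0.35, 0.09, 0.38 and -0.13 in the 4 comparisons, against 0.02, 0.04, -0.00 and 0.01 over all entries tested.

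Among the genes of upstream lipases and acyl handling, Mgll, the monoacylglycerol lipase, rose from 0.148 to 2.55 FPKM in control cells (4.11, q = 0.000123) and from 0.311 to 2.02 in JNK-deficient cells (2.70, q = 0.000144) according to the authors' deposited tables. Pla2g7, a secreted phospholipase that breaks down platelet-activating factor, was higher in JNK-deficient cells when attached (87.6 and 145 FPKM, 0.73, q = 0.000347) and when suspended (106 and 208 FPKM, 0.97, q = 0.00099) according to the authors' deposited tables. Pla2g12a, another secreted phospholipase, was higher in suspended JNK-deficient cells (11.5 and 17.6 FPKM, 0.61, q = 0.0362) according to the authors' deposited table. Of the 22 genes of this list, 5 rose and 1 fell among 10 tested in control and among 11 tested in JNK-deficient cells with suspension, beside 33% and 32.1%, and 30.6% and 29%, of all tested entries.

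The terminal synthases beside those for prostaglandin E2 also differed between groups. Hpgds, the hematopoietic prostaglandin D synthase, rose from 0.0998 to 3.77 FPKM with suspension of control cells (5.24, q = 0.000123) and from 0.132 to 4.45 in JNK-deficient cells (5.07, q = 0.000144) according to the authors' deposited tables. Tbxas1, thromboxane A synthase, rose from 0.346 to 4.17 FPKM (3.59, q = 0.00324) and from 0.360 to 6.43 (4.16, q = 0.00156) according to the authors' deposited tables, at a locus that overlaps Hipk2 on the opposite strand. Both are known from blood cells, whose markers are given above.

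Ptgds, the lipocalin-type prostaglandin D synthase, was higher in JNK-deficient cells both attached (9.24 and 28.4 FPKM, 1.62, q = 0.000347) and suspended (8.04 and 26.4 FPKM, 1.71, q = 0.00099) according to the authors' deposited tables. Akr1b3, aldose reductase, which also has prostaglandin F synthase activity, was higher in JNK-deficient cells (2747 and 5262 FPKM attached, 0.94, q = 0.000347, and 1324 and 2339 suspended, 0.82, q = 0.00099) according to the authors' deposited tables. It fell with suspension of both control (-1.17) and JNK-deficient cells (-1.25) according to the authors' deposited tables. The entry 2810405K02Rik, a synonym of Fam213b, which encodes prostamide and prostaglandin F synthase, was at 0.807 FPKM in attached control and 1.91 in attached JNK-deficient cells (1.24, q = 0.000347) according to the authors' deposited table. Its difference in suspended cells did not pass (0.532 and 1.61 FPKM, 1.60, q = 0.255) according to the authors' deposited table.

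Of 9 receptor genes 3 were tested with suspension, where 1 rose and 1 fell in control cells (33% and 32.1% of all tested entries did) and 1 fell in JNK-deficient cells (29%). Ptger3, the EP3 receptor for prostaglandin E2, rose from 0.708 to 3.68 FPKM with suspension of control cells (2.38, q = 0.000123) and did not pass in JNK-deficient cells (1.62 and 1.73 FPKM, 0.09, q = 0.781) according to the authors' deposited tables. Like Ptgr1 it differed between the genotypes in both states with opposite signs, but in the other order, being higher in attached JNK-deficient cells (1.28, q = 0.000347) and lower in suspended ones (-1.04, q = 0.0123) according to the authors' deposited tables. Ptger4, the EP4 receptor, was at 4.46 to 5.02 FPKM in the 4 groups and passed in none of the 4 comparisons according to the authors' deposited tables, but was lower in suspended control cells once their values were corrected for GC content and length (-0.35, q = 0.0308).

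Of 4 genes of transport and receptor partners, 1 rose and 2 fell with suspension in each genotype. The shares of all tested entries that rose and fell were 33% and 32.1% in control and 30.6% and 29% in JNK-deficient cells. Abcc4, an exporter of prostaglandins, was higher in suspended cells of both genotypes (0.34, q = 0.0027, and 0.56, q = 0.000144) and in JNK-deficient cells of both states (0.39, q = 0.000347, and 0.57, q = 0.00099) according to the authors' deposited tables. With the GC and length correction of the authors' deposited values its rise in control cells did not pass (0.07, q = 0.576). Slco3a1, an organic anion transporter, fell with suspension in control cells (-0.44, q = 0.000123) and in JNK-deficient ones (-0.80, q = 0.000144) by the authors' deposited tables. Neither fall of Slco3a1 passed after that correction of the authors' deposited values (-0.06, q = 0.641, and -0.36, q = 0.115). Both of its p-values in the authors' test were 5e-05, so its standard errors are upper limits as well. Ptgfrn, which encodes a negative regulator of the prostaglandin F receptor, fell in control cells (-0.64, q = 0.000123) and in JNK-deficient ones (-0.70, q = 0.000144) by the authors' deposited tables. Slco2a1, the prostaglandin transporter that takes prostaglandin E2 up before Hpgd can act on it, was at 58.2 FPKM in attached control, 67.0 in suspended control, 89.6 in attached JNK-deficient and 91.2 in suspended JNK-deficient cells. It was higher in JNK-deficient cells of both states (0.71, q = 0.000347, and 0.50, q = 0.00533) and did not pass for suspension (0.20, q = 0.101, and 0.03, q = 0.871) according to the authors' deposited tables.

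**Figure D5:**
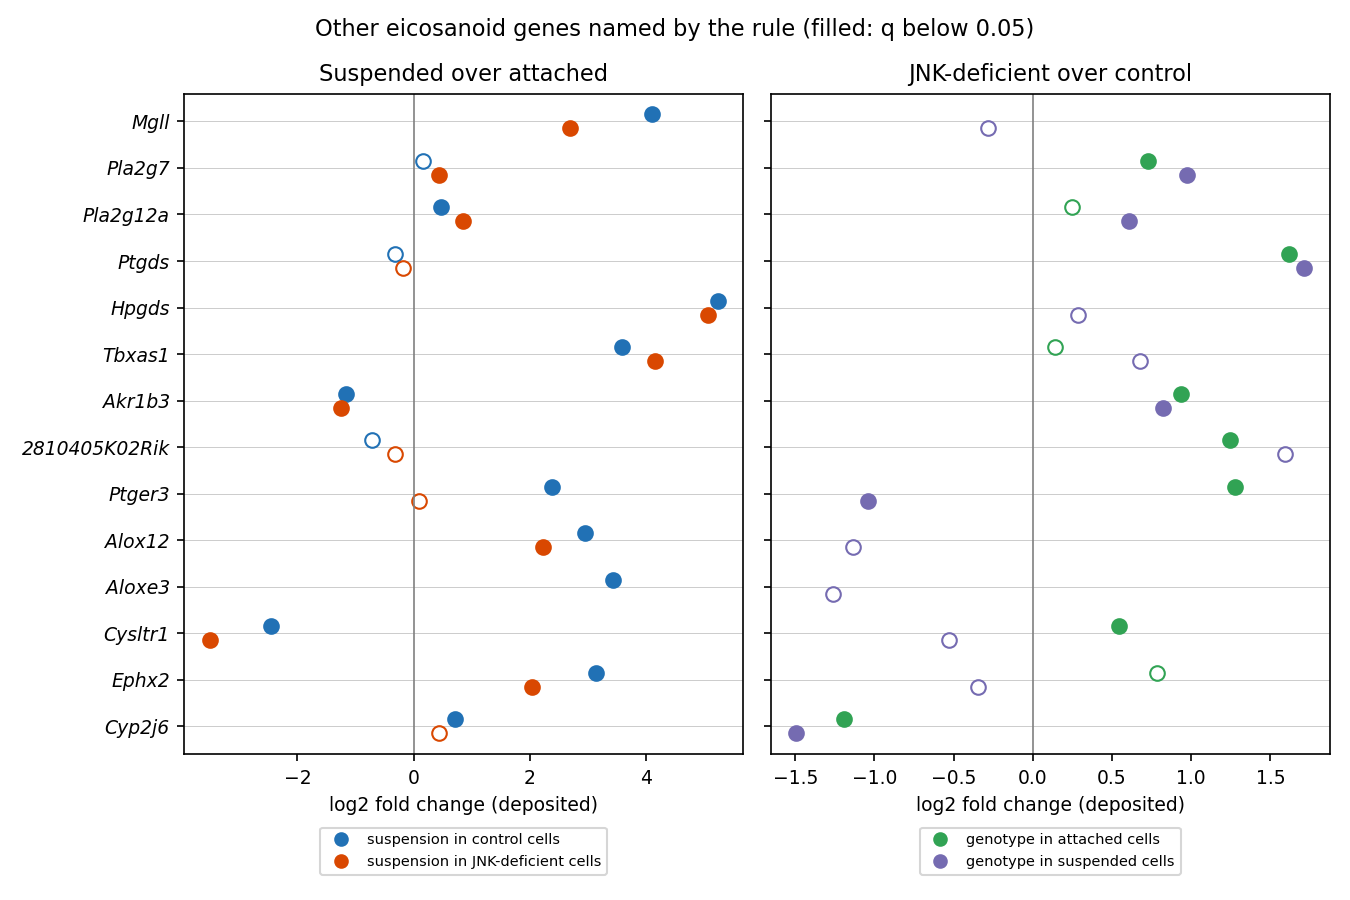
Deposited log2 fold changes (x axis) of other eicosanoid genes named by rule (y axis) for suspended over attached cells (left) and JNK-deficient over control cells (right). Filled points passed a q-value of 0.05, open points were tested and did not pass, and a missing point was not tested. Hpgds has the largest rise with suspension, at 5.24 and 5.07, and Ptger3 has filled points on both sides of 0 in the genotype panel, at 1.28 and -1.04.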

How the data were processed

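RNA-seq was run on 12 samples, 3 in each of 4 groups assigned from the genotype and culture labels. Per the submitters' processing notes, TopHat, Bowtie, Cufflinks 1.0.3 and Cuffdiff were used with mouse build mm10; no source used here names the annotation. The authors deposited 1 table per comparison with a pooled FPKM for each group, the log2 ratio of these, and p- and q-values. The columns do not name the groups, whose order was taken from each table's title. The smallest deposited p-value was 5e-05. Deposited q-values differed from a Benjamini-Hochberg adjustment of the p-values over all tested entries by at most 8.56e-05. Entries whose deposited p-value stood at the largest possible value were taken as not tested by the authors. No test was refitted, since no value per sample is held, and the precision of a value is that of the authors' test.

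Fold changes were corrected for GC content and transcript length with lowess (fraction 0.3, statsmodels 0.14.6, Python 3.11.15) over the 86.2% to 86.7% of tested entries matched to GENCODE on the same build, with standard errors taken from the deposited p-values where p was at most 0.95. GC content and length were medians over all GENCODE transcripts of a gene, which can differ from the transcript of the deposited entry. The length used was 697 bases for Ptgs1, 623 for Ptges and 765 for Ptges2, from 5, 4 and 3 transcripts. The deposited entry of each holds 1 transcript. Where the deposited p-value was the smallest given, the standard error is an upper limit and the corrected q-value may be too large. The subtracted trend was taken as free of error, which can make a corrected q-value too small. The correction was run on simulated fold changes of 11487 genes, of which 200 were changed. It recovered 100% of the changed genes and called 0.0886% of the unchanged ones. Few genes changed there and the standard errors were known, unlike here, so the simulation cannot show how well the correction works on these data. Other alternatives were a q-value of 0.01, a fold of 1.5, a minimum of 1 FPKM, pseudocounts of 0.1 and 1, and centring.

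The members and gene lists were chosen with earlier results of these data known. Named by rule were all members, Mapk8, Mapk9, in each comparison up to 6 other eicosanoid genes with the largest fold change past the threshold and at least 1 FPKM in the higher group, and the 3 nearest patterns of the 3 members with the widest range of log2(FPKM + 1); Abcc4, Slco2a1, Slco3a1, Ptgfrn, Ptger4 and the genes named from the leukocyte list were added after their values were seen. The values of 1 receptor gene that the rule named are not reported here. Of 66 eicosanoid symbols listed, 65 had an entry, 1 being a synonym. Sequences are from RefSeq (GRCm38.p6).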

Additional observations from a re-analysis of the deposited data

How the results depend on the processing

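No paired analysis was possible because the tables hold 1 pooled value per group, and for the same reason no sample could be left out. The depth per sample is unknown. The members called for genotype in attached cells were 4, and 2 (Ptgs1 and Ptgr1) when a fold of at least 1.5 was also asked. For genotype in suspended cells 1 was called, and 2 after the GC and length correction, which added Ptgs2 (-0.39, q = 0.0265, from the corrected authors' deposited values). The counts of members called for suspension, and of the other eicosanoid genes called in all 4 comparisons, stayed within 1.5 times under each alternative run. No called fold change of a member changed sign under any alternative run. After the GC and length correction Ptges2 no longer passed in either suspension comparison, though its standard errors are upper limits, and Ptges3 passed in JNK-deficient cells. The cause of these changes was not tested. The corrected q-values of Ptgs2 and Ptges3 may be too small, since the subtracted trend was taken as free of error. Adding a pseudocount of 1 moved 6 of 34 fold changes, all of Ptges, Hpgd or Ptgr1, and brought the rise of Ptgr1 in JNK-deficient cells to 3.04 and that of Ptges in control cells from 1.84 to 0.40. Asking for at least 1 FPKM in the higher group left out Ptges, so that 6 members in place of 7 were called for suspension of control cells.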

Other observations

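The lipoxygenase branch, which turns arachidonic acid into leukotrienes and hydroxy acids, had 4 genes that rose and 1 that fell of 7 tested with suspension of control cells, and 2 that rose and 3 that fell of 6 tested in JNK-deficient cells, according to the authors' deposited tables. Of all tested entries, 33% rose and 32.1% fell in control and 30.6% rose and 29% fell in JNK-deficient cells. Aloxe3, an epidermis-type lipoxygenase, rose from 0.0934 to 1.0 FPKM (3.43, q = 0.00148) and Alox12, the platelet-type 12-lipoxygenase, from 0.152 to 1.18 (2.96, q = 0.000458) in control cells according to the authors' deposited table. Cysltr1, a receptor for cysteinyl leukotrienes, fell from 7.18 to 1.30 FPKM in control (-2.46, q = 0.000123) and from 9.90 to 0.867 in JNK-deficient cells (-3.51, q = 0.000144) according to the authors' deposited tables, at a locus that overlaps Gm5127 on the opposite strand.

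In the epoxide branch, Ephx2, the soluble epoxide hydrolase, rose from 0.195 to 1.72 FPKM with suspension of control cells (3.14, q = 0.000123) and from 0.317 to 1.31 in JNK-deficient cells (2.04, q = 0.000526) according to the authors' deposited tables. Cyp2j6, a cytochrome P450 of a family that makes arachidonic acid epoxides, was lower in JNK-deficient cells when attached (2.94 and 1.29 FPKM, -1.19, q = 0.000347) and when suspended (5.19 and 1.84 FPKM, -1.49, q = 0.00099) according to the authors' deposited tables.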
